A study of Bos taurus with 6 samples.

Results

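A mature egg waits in metaphase II until sperm make its calcium stores discharge, and 9 genes of that calcium machinery are described here in bovine oocytes. They were taken by name from a fixed set covering the store, entry of calcium from outside, its removal, and its protein targets: ITPR1, STIM1, ORAI1, ATP2A2, ATP2B1, CAMK2G, CAMK2D, CALM2 and PPP3CA. All 9 were found among the 17325 genes with a value in every library, and all 9 passed the filter on low values. The libraries come from oocytes matured in vitro to metaphase II. 3 are labelled NC, for negative control, and 3 are labelled siMTFP1, for knockdown of MTFP1, a gene of the inner mitochondrial membrane. The labels and notes used here do not state how many oocytes went into a library, from which animals, what reagent and dose were used, or what the control received. A library is written as its group and number, such as NC 1.

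In the egg, fertilization leads to inositol trisphosphate, which opens its receptor on the endoplasmic reticulum and lets stored calcium into the cytosol in repeated waves. Pumps then return calcium to the store or push it out of the cell, and an emptied store calls in calcium through channels of the plasma membrane. Calmodulin binds the calcium and switches on calmodulin-dependent kinase II and the phosphatase calcineurin, and the kinase marks the meiotic inhibitor encoded by FBXO43 for destruction, which ends the arrest.

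MTFP1 (NCBI gene ID 525071), the gene named by the labels, was read first as a check on them. It averaged 0.377 ± 0.283 FPKM (sequenced fragments divided by transcript length and by the fragments mapped in the library; SD, n = 3) in NC and 0.720 ± 0.380 in siMTFP1, and so was at a higher mean, not a lower one, where the label says knockdown (exact two-sided permutation test, p = 0.4, where 3 against 3 cannot go below 0.1). It had 0.53, 0.55 and 0.05 FPKM in NC 1, 2 and 3 and 0.43, 0.58 and 1.15 in siMTFP1 1, 2 and 3, so the other 4 libraries lay together between NC 3 and siMTFP1 3. The difference of 0.32 on the log2(FPKM + 1) scale was 0.14 without NC 3 and 0.15 without siMTFP1 3. Every direction below is therefore that of the labels. All 18 oocyte markers examined lay above 0 in every library. The summed level of 30 cumulus and granulosa markers, the cells that surround the oocyte, was 177.0 to 389.0 FPKM in NC and 222 to 1221 in siMTFP1, with 2 to 5 of them at 0 per library. The highest sum was that of siMTFP1 2, where TIMP1 alone had 955 FPKM. Without TIMP1 the sums were 162 to 198 in NC and 190 to 266 in siMTFP1, and the follicle stimulating hormone receptor FSHR was listed at 0 in all libraries but NC 3. Of the 30 markers 18 were tested, with 14 at a higher and 4 at a lower mean in siMTFP1 and a median difference of 0.24. The sums of FPKM over a library ran from 784366 to 892790, and the depth is unknown.

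Each of the 9 genes differed between the groups by less than the test could separate from the spread between libraries. On the log2(FPKM + 1) scale the differences, siMTFP1 minus NC, ran from -0.44 for CAMK2D to 0.36 for CAMK2G, with 4 genes higher and 5 lower and a median of -0.04, beside 0.02 over all 9730 tested genes. By limma, 0 of the 9 had a Benjamini-Hochberg adjusted p under 0.05, beside 0% of all tested genes, and 0 had an unadjusted p under 0.05, beside 6.53%. STIM1 was the 1 member whose groups did not overlap, 11.1% of the 9, beside 11.0% of all tested genes. It was higher in siMTFP1, a direction without overlap in 5.97% of all tested genes, and 0 members were lower without overlap, beside 5.05%. The share of members without overlap thus lay near that of the whole transcriptome. In libraries of whole cells, fewer cells of a type and less RNA per cell cannot be told apart.

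**Figure D1:**
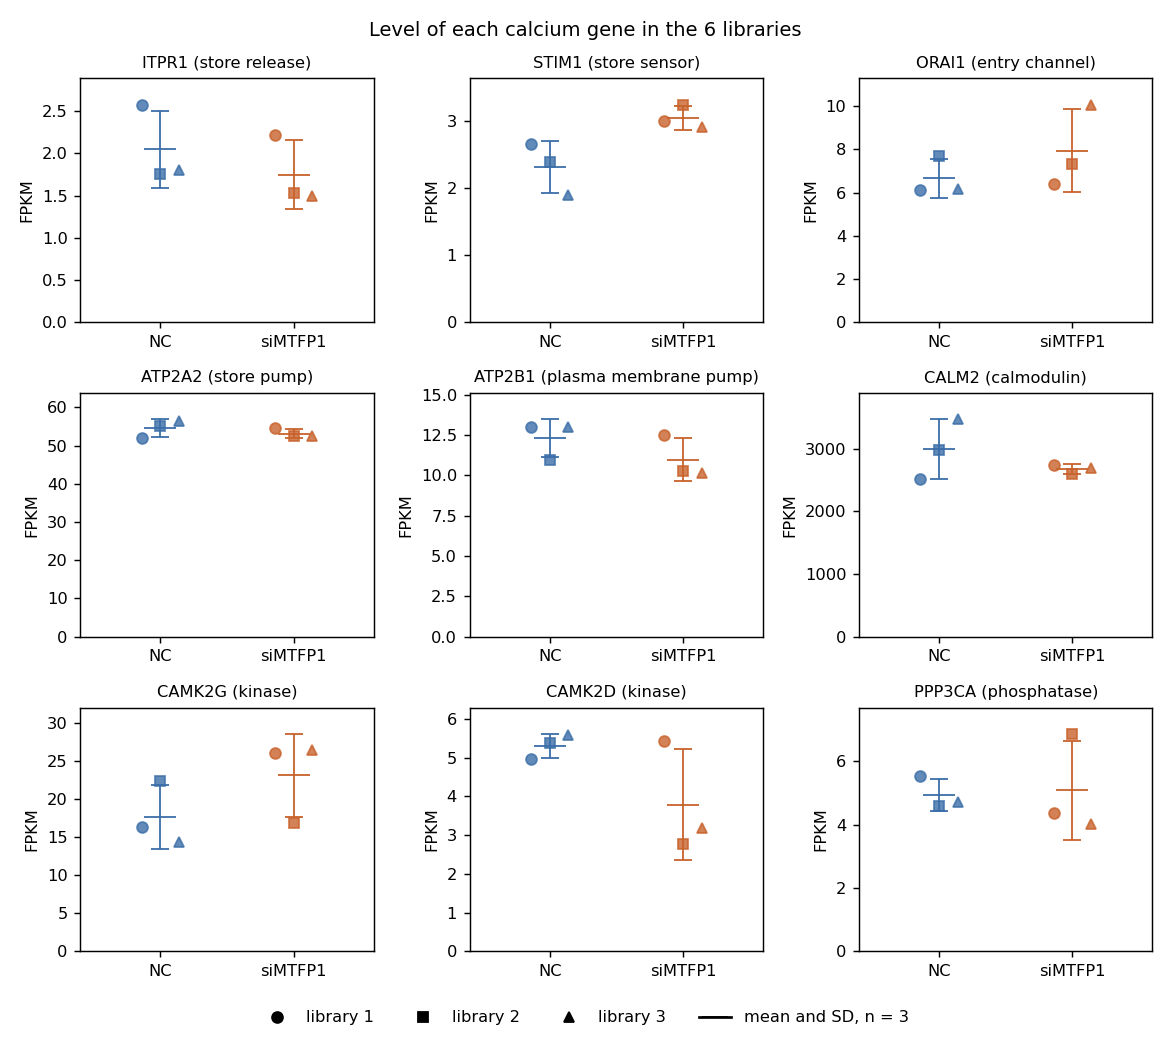
FPKM (linear axes from 0) of the 9 calcium genes in the 3 NC and 3 siMTFP1 libraries, with a marker shape for each library number and bars for the mean and SD (n = 3). Only in STIM1 do all siMTFP1 points, at 2.90 to 3.24 FPKM, lie above all NC points, at 1.89 to 2.65.

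The 9 transcripts covered a wide range of levels, and their order was nearly fixed. FPKM is a level per length, and the genes are ranked on it here. Whether transcripts of different genes were captured equally well was not tested, so the order is one of FPKM. CALM2 averaged 2832 FPKM over the 6 libraries and lay above 99.8% of all genes. ATP2A2 came next at 53.9 FPKM, followed by CAMK2G at 20.4, ATP2B1 at 11.6 and ORAI1 at 7.31. Each of these first 4 stayed above the next in every comparison of libraries, although ATP2B1 and ORAI1 nearly touched, at 10.12 FPKM in the lowest library of the former and 10.08 in the highest of the latter. PPP3CA (5.01 FPKM), CAMK2D (4.54), STIM1 (2.68) and ITPR1 (1.90) closed the order with overlapping ranges. Of these neighbours, ORAI1 was above PPP3CA in 6 of 6 libraries and STIM1 above ITPR1 in 6 of 6, while CAMK2D was above STIM1 in 5 of 6 and PPP3CA above CAMK2D in 3 of 6.

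ITPR1 (gene ID 317697) encodes the inositol trisphosphate receptor through which the egg's stores open. It had 2.58, 1.76 and 1.80 FPKM in NC 1, 2 and 3, and 2.22, 1.53 and 1.50 in siMTFP1 1, 2 and 3. The libraries numbered 1 were the highest of their groups and the groups overlapped. The difference was -0.15 (SE 0.19, 95% interval -0.57 to 0.28, limma adjusted p = 0.934), and it was -0.03 without NC 1 and -0.27 without siMTFP1 1. It was the lowest of the 9 in FPKM, yet it held the larger part of its family in every library. ITPR2 and ITPR3, the other two receptor genes, averaged 0.690 and 0.167 FPKM in NC, below the filter, and the share of ITPR1 in the summed FPKM of the 3 was 62.7% to 77.7%. Ryanodine receptors, the other store channels, stayed at or below 0.28 FPKM, the value of RYR3 in siMTFP1 1. The most abundant of the release genes listed were ERP44, an endoplasmic reticulum protein that binds the ITPR1 receptor, at 245 ± 49.9 FPKM in NC and 219 ± 98.6 in siMTFP1, and TMBIM6, a calcium leak protein of the store, at 49.0 ± 12.5 and 43.2 ± 3.39. Both had overlapping groups. PLCZ1, the sperm phospholipase that makes inositol trisphosphate at fertilization, was listed at 0 in 4 of 6 libraries and reached 0.10 in NC 3.

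By a rule based on values and not on function, the 3 genes closest to ITPR1 across the 6 libraries were PLEKHA3, CHP1 and RNF8. They were found among 4558 genes with a mean of at least 10 FPKM. Likeness was measured as the root mean square difference of log2(FPKM + 1) values centred on each gene's mean, and came to 0.0377 for PLEKHA3, 0.0382 for CHP1 and 0.0507 for RNF8. CHP1 had 47.51, 38.03 and 35.16 FPKM in NC and 42.71, 32.95 and 32.93 in siMTFP1, again highest in the libraries numbered 1. The log2(FPKM + 1) scale understates the changes of a gene as low as ITPR1, so the measure depends on level as well as on pattern. With 6 points and 4558 candidates, some close match is bound to be found.

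STIM1 (gene ID 534816), the sensor in the store membrane that opens entry channels when the store empties, had 2.65, 2.38 and 1.89 FPKM in NC 1, 2 and 3. In siMTFP1 1, 2 and 3 it had 2.99, 3.24 and 2.90. All siMTFP1 libraries were above all NC libraries, and the gap between the nearest was 2.65 against 2.90. The difference was 0.30 (SE 0.16, 95% interval -0.07 to 0.66), larger than that of 80.5% of tested genes in size, and it did not pass (limma adjusted p = 0.824). Without siMTFP1 2, the library with the highest STIM1 and the highest cumulus marker sum, it was 0.26. Without NC 3, the lowest library, it was 0.20, and without NC 1 it was 0.37. STIM2, a second sensor, averaged 4.82 ± 1.27 FPKM in NC and 4.42 ± 0.791 in siMTFP1, so STIM1 was the less abundant sensor in every library. Its share of the pair was 29.6%, 37.4% and 31.1% in NC and 36.2%, 46.6% and 40.4% in siMTFP1, and the groups overlapped.

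ORAI1 (gene ID 517688) encodes the pore that STIM proteins open. It had 6.13, 7.71 and 6.16 FPKM in NC 1, 2 and 3 and 6.42, 7.34 and 10.08 in siMTFP1 1, 2 and 3. The siMTFP1 3 value stood highest and the other 5 lay between 6.13 and 7.71. The difference of 0.21 (SE 0.19, 95% interval -0.23 to 0.65, limma adjusted p = 0.901) came down to 0.04 without siMTFP1 3 and was 0.33 without siMTFP1 1. ORAI1 was the main entry channel by transcript, with 82.4% to 93.1% of the summed FPKM of ORAI1, ORAI2 and ORAI3. Within a library ORAI1 was 2.15 to 3.48 times the level of STIM1, and 0.686 to 1.41 times that of STIM1 and STIM2 together.

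ATP2A2 (gene ID 540568), the pump that refills the store, was the steadiest of the 9. It had 51.97, 55.20 and 56.56 FPKM in NC 1, 2 and 3 and 54.55, 52.40 and 52.51 in siMTFP1 1, 2 and 3, with the highest library 1.09 times the lowest. The siMTFP1 values all lay inside the NC range. The difference was -0.04 (SE 0.12, limma adjusted p = 0.979), and its 95% interval of -0.32 to 0.24 was the narrowest of the 9. With each library left out in turn the difference stayed between -0.07 and -0.01. The sister pumps ATP2A1 and ATP2A3 did not exceed 0.07 FPKM, so ATP2A2 held 99.87% or more of the family's FPKM in each library. In FPKM the pump transcript was at 20.1 to 35.0 times the level of the release channel ITPR1.

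ATP2B1 (gene ID 282641), a pump that carries calcium out across the plasma membrane, had 12.98, 10.96 and 12.99 FPKM in NC 1, 2 and 3. It had 12.50, 10.27 and 10.12 in siMTFP1 1, 2 and 3. The siMTFP1 libraries numbered 2 and 3 were below every NC library and siMTFP1 1 was not. The difference was -0.16 (SE 0.16, 95% interval -0.51 to 0.20, limma adjusted p = 0.909), and it was -0.25 without siMTFP1 1 and -0.11 without siMTFP1 3.

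Its relative ATP2B4 went the other way. That gene had 4.20, 4.88 and 4.37 FPKM in NC and 6.10, 6.46 and 7.39 in siMTFP1, and the groups did not overlap. The difference was 0.48 (SE 0.15), and it did not pass over all genes (limma adjusted p = 0.698, 0.0129 before adjustment). ATP2B1 therefore held 75.6%, 68.9% and 74.8% of the summed FPKM of the 4 plasma membrane pumps in NC and 67.1%, 61.4% and 57.8% in siMTFP1. Every siMTFP1 share was below every NC share, with a mean difference of -11.0 percentage points. For this measure, added after the values were seen, the exact two-sided permutation test gave p = 0.1, the smallest possible. The sum of the 4 was 16.8 ± 0.790 FPKM in NC and 17.6 ± 0.950 in siMTFP1, and the groups overlapped.

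CALM2 (gene ID 100297344), a gene for calmodulin, the sensor protein that binds the released calcium, had 2512, 2984 and 3470 FPKM in NC 1, 2 and 3. In siMTFP1 1, 2 and 3 it had 2741, 2597 and 2690. The NC libraries spread widely around the siMTFP1 libraries, with SDs of 479 and 72.9 FPKM, and the siMTFP1 values all lay inside the NC range. The difference was -0.15 (SE 0.13, 95% interval -0.45 to 0.15, limma adjusted p = 0.894), and it was -0.03 without NC 3 and -0.27 without NC 1. CALM3, another calmodulin gene, averaged 4.20 ± 1.35 FPKM in NC and 5.85 ± 1.62 in siMTFP1, with overlapping groups.

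CAMK2G (gene ID 282162) and CAMK2D (gene ID 532713) encode the gamma and delta subunits of calmodulin-dependent kinase II, the gamma form being known as the one that drives egg activation in the mouse. CAMK2G had 16.29, 22.38 and 14.33 FPKM in NC 1, 2 and 3 and 26.05, 16.82 and 26.44 in siMTFP1 1, 2 and 3. The siMTFP1 libraries numbered 1 and 3 were above every NC library, and siMTFP1 2 lay among them. The difference was 0.36 (SE 0.23, 95% interval -0.15 to 0.88, limma adjusted p = 0.855), and it was 0.57 without siMTFP1 2 and 0.23 without NC 3. CAMK2D had 4.97, 5.38 and 5.57 FPKM in NC and 5.42, 2.76 and 3.17 in siMTFP1, where siMTFP1 1 was at the NC level and the other two were below all NC libraries. Its difference of -0.44 (SE 0.22, 95% interval -0.93 to 0.06) was larger in size than that of 91.1% of tested genes and had the smallest p of the 9 (limma adjusted p = 0.789, 0.0756 before adjustment). It was -0.67 without siMTFP1 1 (limma adjusted p = 0.398) and -0.28 without siMTFP1 2, so 1 library moved it by over 1.5 times.

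The share of CAMK2G in its kinase family, a measure added after the values were seen, did not overlap between the groups. The exact two-sided permutation test gave p = 0.1, the smallest possible. CAMK2A and CAMK2B stayed at or below 0.20 FPKM, and CAMK2G held 75.9%, 80.1% and 71.8% of the family's FPKM in NC 1, 2 and 3. In siMTFP1 1, 2 and 3 it held 82.1%, 85.4% and 89.0%, all above the NC libraries, a mean difference of 9.57 percentage points. The summed FPKM of the family was 23.1 ± 4.24 in NC and 27.0 ± 6.44 in siMTFP1, and the groups overlapped. A share within a library does not change when the whole library is rescaled, but it does depend on how reads common to similar genes were divided, a step the notes used here do not describe.

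**Figure D2:**
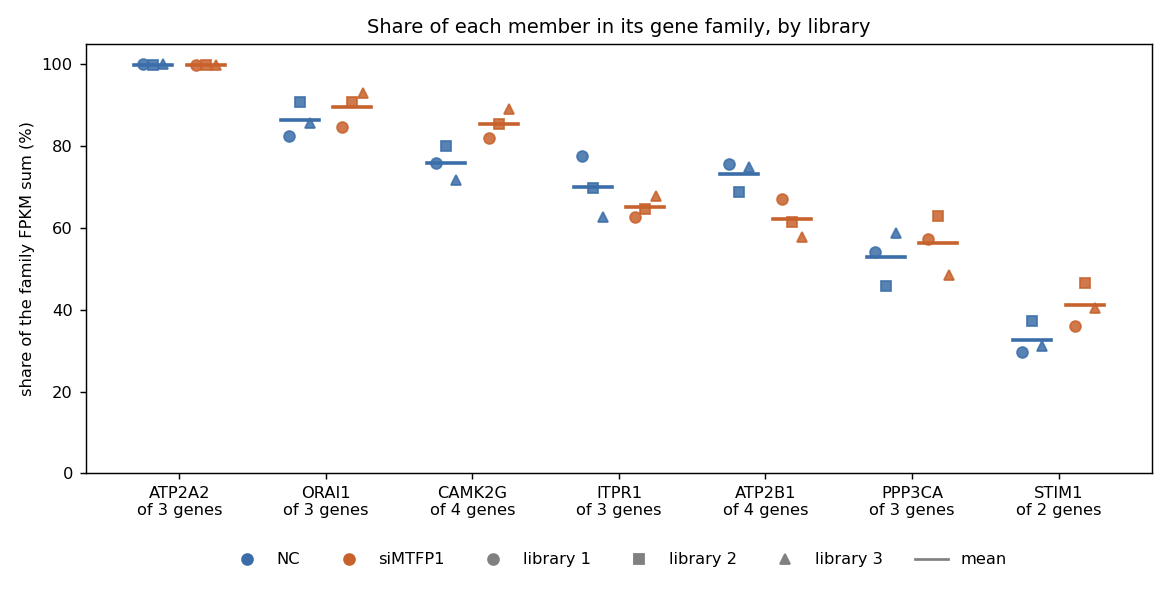
Share (percent, from 0) of each member in the summed FPKM of its gene family, for the 3 NC and 3 siMTFP1 libraries, with a line at the mean. The groups separate visibly for CAMK2G, at 71.8% to 80.1% against 82.1% to 89.0%, and for ATP2B1, at 68.9% to 75.6% against 57.8% to 67.1%.

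Such shares were compared for 7 families, a measure added after the values were seen. The exact two-sided permutation test gave the smallest possible p, 0.1, for CAMK2G, ATP2B1 and ATP2A2, and 0.233 for each after Benjamini-Hochberg adjustment over the 7. For ATP2A2 the means were 99.98% and 99.9%, a difference set by values of at most 0.07 FPKM in the sister genes. The other 4 shares had an exact p of 0.2 to 0.6, and their groups overlapped. The test cannot reach 0.05 with 3 libraries a group, so the separations are given as descriptions. Leaving out any 1 library left the mean difference between 7.51 and 11.7 percentage points for CAMK2G and between -13.5 and -8.83 for ATP2B1.

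PPP3CA (gene ID 286852), a catalytic subunit of calcineurin, had 5.52, 4.58 and 4.73 FPKM in NC 1, 2 and 3 and 4.37, 6.87 and 4.01 in siMTFP1 1, 2 and 3. The siMTFP1 2 value was the highest of the 6 and the other siMTFP1 values were the lowest. The difference was 0.01 (SE 0.20, 95% interval -0.46 to 0.47, limma adjusted p = 0.999), and it was -0.19 without siMTFP1 2. That library also had the highest sum of cumulus markers, 1221 FPKM, and their part in the PPP3CA value was not tested. PPP3CB, a second catalytic gene, averaged 3.69 ± 0.786 FPKM in NC and 2.66 ± 0.159 in siMTFP1, and PPP3CC averaged 0.800 and 1.19. PPP3CA made up 45.8% to 63.0% of the 3. The regulatory subunit PPP3R1 averaged 7.52 ± 0.791 and 9.11 ± 2.07 FPKM, which was 0.717 to 1.28 times the catalytic sum in a library.

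**Figure D3:**
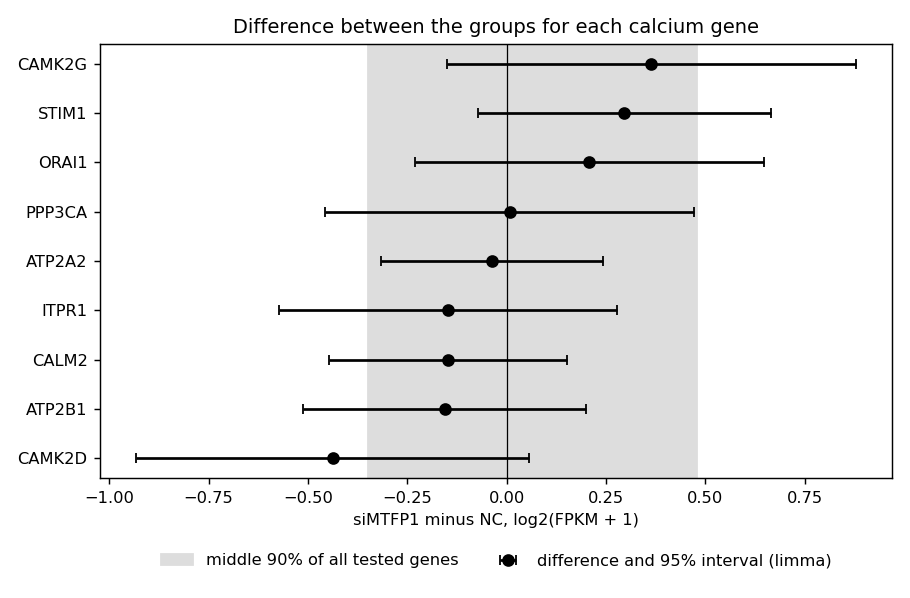
Difference siMTFP1 minus NC on the log2(FPKM + 1) scale with its 95% interval from limma for each of the 9 genes, over a grey band that holds the middle 90% of all tested genes (-0.35 to 0.48). All 9 intervals include 0, and CAMK2D at -0.44 is the 1 point outside the band.

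The wider calcium pathway was read from 10 lists by role, which hold 149 genes with the 9 members included. Of these 146 were matched and 83 passed the filter, so 63 lay below a mean of 1 FPKM. By limma 0 of the 83 had an adjusted p under 0.05, beside 0% of all tested genes. An unadjusted p under 0.05 was found for 7, or 8.43%, beside 6.53% of all tested genes. Among the listed genes reported here all 7 were higher in siMTFP1, beside 3.86% of all tested genes in that direction, and 0 were lower, beside 2.66%. The transcriptome's own balance at that p was 376 higher and 259 lower, and turned to 305 and 355 after quantile normalization, where the lists gave 5 and 1. The count of 7 depended on single libraries: it was 2 without siMTFP1 2, 3 without NC 3, 4 without siMTFP1 3 and 9 without NC 2. In the same fits 3.46%, 4.68%, 7.2% and 7.26% of all tested genes had an unadjusted p under 0.05. The count of 7 includes SDF4, which reached the filter through its siMTFP1 values alone. Over genes with a mean of at least 1 FPKM in each group, a filter added after the values were seen, the lists gave 6 of 81, or 7.41%, beside 5.89% of all genes kept. The median difference of the 83 was 0.04, beside 0.02 over all tested genes.

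The buffers and chaperones inside the store gave 4 of the 7, or 36.4% of those tested, beside 6.53% of all tested genes. This list had 11 tested genes of 12, with 9 at a higher and 2 at a lower mean in siMTFP1 and a median difference of 0.24, which stayed above 0 under each scaling tried and was 0.08 without siMTFP1 2. Over all tested genes 5275 were at a higher and 4455 at a lower mean, with a median of 0.02. Without SDF4, which passed the filter only through its siMTFP1 values, the list had 3 genes of 10 at an unadjusted p under 0.05. That share was 5.89% over all genes with a mean of at least 1 FPKM in each group. The list's median without SDF4 was 0.20. The 18 tested cumulus and granulosa markers had a median of 0.24 as well. Of these, 4, or 22.2%, had an unadjusted p under 0.05, beside 6.53% of all tested genes. All 4 were higher in siMTFP1 (INHA, SPARC, VIM and SERPINE2). SERPINE2 had 13.28, 13.81 and 16.43 FPKM in NC and 24.61, 43.06 and 17.99 in siMTFP1, without overlap, and the groups of INHA, SPARC and VIM overlapped. Of the 18 markers, 14 were at a higher and 4 at a lower mean in siMTFP1. The largest difference downward was -1.36 for TNFAIP6. It had 5.31, 1.51 and 17.14 FPKM in NC and 1.06, 2.84 and 1.16 in siMTFP1, with overlap. The part of cumulus and granulosa cells in the store lumen values was not tested. Calreticulin, CALR, the main calcium buffer of the store, had 15.04, 15.81 and 10.33 FPKM in NC and 14.52, 25.20 and 23.64 in siMTFP1. Its difference was 0.57 (SE 0.24, limma adjusted p = 0.763) and the groups overlapped, since siMTFP1 1 lay below 2 of the NC libraries. The chaperone HSP90B1 had 116.3, 122.4 and 103.3 FPKM in NC and 144.5, 145.8 and 130.6 in siMTFP1, with no overlap and a difference of 0.30. The reticulocalbin RCN3 averaged 3.85 ± 1.25 and 6.67 ± 2.09 FPKM. SDF4, a calcium-binding protein of the secretory pathway, averaged 0.487 ± 0.150 and 1.66 ± 0.965 FPKM.

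Within the same list the abundant RCN2 averaged 270 FPKM in NC and 269 in siMTFP1, and CANX, a membrane chaperone, 30.2 and 28.5. CALR, SDF4 and HSP90B1 were highest in siMTFP1 2, the library with the largest cumulus marker sum. HSP90B1 had 145.8 FPKM there and 144.5 in siMTFP1 1, and RCN3 was highest in siMTFP1 3, at 8.45. With each library left out in turn the CALR difference ranged from 0.39 to 0.81 and that of HSP90B1 from 0.23 to 0.35.

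Among entry genes, 5 of 18 matched were tested. SARAF, which restrains store-operated entry, had 13.16, 13.63 and 7.64 FPKM in NC and 18.57, 18.67 and 15.16 in siMTFP1, without overlap. Its difference of 0.60 (SE 0.22) did not pass over all genes (limma adjusted p = 0.750, 0.0258 before adjustment), and it was 0.35 without NC 3, the lowest library. SEPTIN7, a cytoskeletal protein linked to this entry, averaged 31.9 and 29.7 FPKM. The plasma membrane channels TRPM7, TRPV3 and CACNA1H, known for calcium influx in mouse eggs, lay at or below 0.76 FPKM in every library.

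Of the 11 genes for mitochondrial calcium reported here, all were tested and 0 had an unadjusted p under 0.05, beside 6.53% of all tested genes. The mitochondrial calcium uniporter pore MCU had 46.84, 35.85 and 43.71 FPKM in NC and 38.56, 37.00 and 34.50 in siMTFP1, and the groups overlapped. The pore's dominant-negative partner MCUB averaged 63.9 ± 26.5 and 62.3 ± 8.25 FPKM, and the outer membrane channel VDAC1 averaged 203 ± 9.30 and 208 ± 21.2.

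Of the remaining tested removal, calmodulin and calcineurin genes reported here, CABIN1 alone had groups that did not overlap, beside 11.0% of all tested genes. ATP2C1, the calcium pump of the Golgi, averaged 11.0 and 10.8 FPKM, and the calmodulin-like CALML4 ranged from 11.36 to 50.42 over the libraries. CAMK1, a calmodulin-dependent kinase, averaged 18.4 ± 4.57 and 21.6 ± 2.00 FPKM. RCAN3, a regulator of calcineurin, averaged 31.7 and 29.4 FPKM. CABIN1, an inhibitor of calcineurin, is the last of the 7 genes and falls outside the rule for names. It had 0.92, 1.32 and 0.90 FPKM in NC and 1.39, 1.64 and 2.13 in siMTFP1, with a difference of 0.41 and a limma adjusted p of 0.764. Among protein kinase C genes PRKCH was the most abundant, at 41.8 ± 4.40 FPKM in NC and 47.2 ± 7.05 in siMTFP1, followed by PRKCI at 8.62 and 8.43. PRKCA, at 1.10 and 1.67 FPKM, was the 1 of 5 tested whose groups did not overlap, or 20.0%, beside 11.0% of all tested genes.

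Of 8 tested genes for arrest and exit at the end of the pathway, 0 had an unadjusted p under 0.05, beside 6.53% of all tested genes. In siMTFP1 7 were at a higher and 1 at a lower mean, beside 5275 and 4455 of all tested genes. CDC20, an activator of the ligase that destroys cyclin B, had 191.74, 193.76 and 200.60 FPKM in NC and 266.61, 219.97 and 219.54 in siMTFP1. It was the 1 gene of the 8 without overlap, 12.5% beside 11.0% of all tested genes, and its difference of 0.26 (SE 0.13) did not pass (limma adjusted p = 0.780, 0.0689 before adjustment). Cyclin B1, CCNB1, which is destroyed at egg activation, averaged 6484 ± 381 and 6738 ± 684 FPKM. WEE2, an oocyte kinase that acts on CDK1 at exit, averaged 374 ± 40.0 and 414 ± 40.6. FBXO43, whose product is marked by kinase II, had 41.03, 35.38 and 35.78 FPKM in NC and 45.67, 42.08 and 35.11 in siMTFP1, and the groups overlapped. Of 13 tested genes for cortical granules and zinc release, 0 had an unadjusted p under 0.05, beside 6.53% of all tested genes. Groups did not overlap in 3, or 23.1%, beside 11.0% of all tested genes. The fusion protein SNAP23 was lower without overlap, at 97.1 ± 6.96 and 87.7 ± 1.93 FPKM. The membrane fusion genes STX4, at 2.26 ± 0.487 and 2.99 ± 0.246, and NAPA, at 0.907 ± 0.371 and 1.36 ± 0.0404, were higher without overlap, NAPA passing the filter only through its siMTFP1 values. The traffic GTPase RAB11A averaged 626 ± 83.1 and 568 ± 8.35. ASTL, the protease of cortical granules that cleaves the zona pellucida, averaged 34.5 and 41.9 FPKM, with siMTFP1 3 highest at 53.58.

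**Figure D4:**
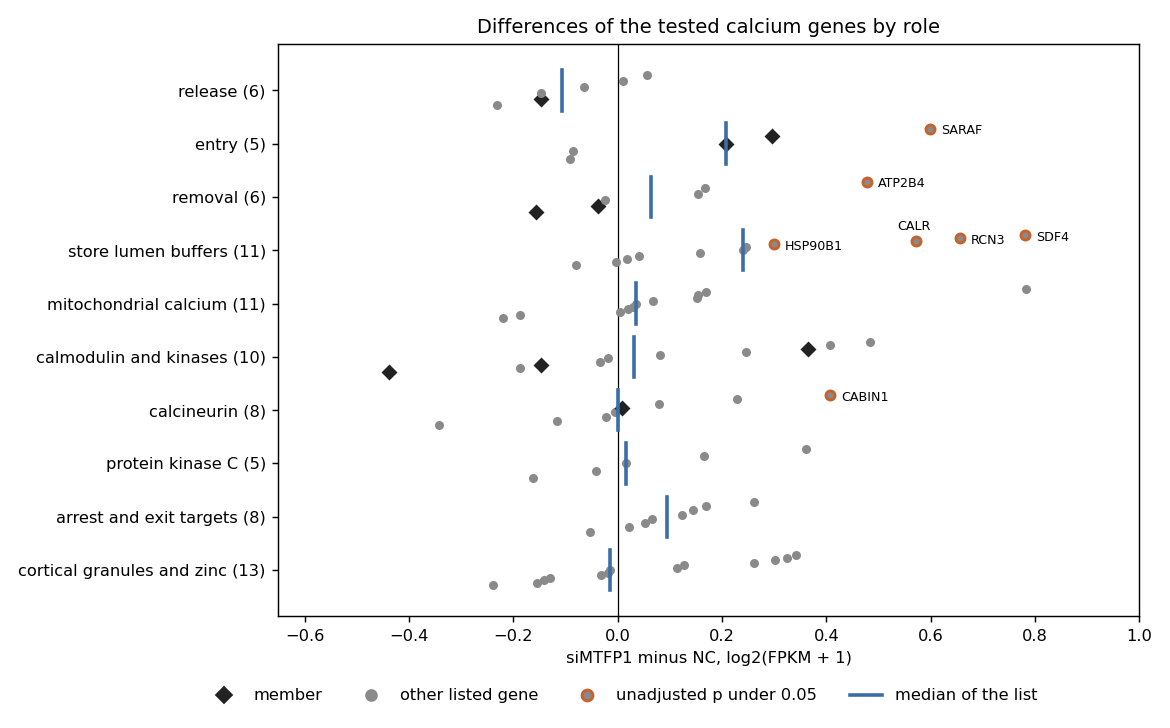
Difference siMTFP1 minus NC on the log2(FPKM + 1) scale for the 83 tested calcium genes in 10 role lists, with the number tested in brackets, diamonds for members, an orange rim for an unadjusted p under 0.05 and a blue bar for the list's median. The 4 rimmed genes of the store lumen lie at 0.30 to 0.78, the top value being SDF4, and 0 of the 9 members are rimmed.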

How the data were processed

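Messenger RNA libraries were made from TRIzol-extracted total RNA with a BGI kit (labels' protocols). For each gene and library the authors deposited 1 FPKM value with 2 decimals. Build ARS-UCD1.2 and the tools RSEM 1.3.1, HISAT2 2.2.1, DESeq2 1.4.5 and Bowtie2 2.3.4.3 come from the submitters' processing notes, without role or order, and strand use is not stated there. Groups follow the titles. The gene ID was used to restore 24 symbols stored as dates, and 17087 of 17325 IDs matched RefSeq of ARS-UCD2.0, used for names only. Depth is unknown. The commonest log2 ratio of low values (0.1 to 0.5 FPKM) lay within 0.1 of 0 in 15 of 15 library pairs.

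The 9730 genes whose mean FPKM reached 1 were compared as log2(FPKM + 1) with limma 3.58.1 in R 4.3.3 (eBayes with trend, two-sided, group only, Benjamini-Hochberg over all tested genes, threshold 0.05), a scale that understates changes of low genes. The test was first run on simulated data. Single values were compared by exact permutation tests (scipy 1.17.1). The labels do not say whether replicates were separate cultures or animals, so the spread behind each p-value may be technical. The members and lists were chosen with earlier results of these data known. Named genes are the 9 members, their family relatives, the 2 most abundant genes of each role, listed genes at an unadjusted p under 0.05 (up to 6 per direction), the 3 closest to ITPR1 in pattern, and MTFP1. 2 listed genes are not reported here and were left out of the lists. The others named (RYR3, PLCZ1, ATP2A1, CANX, the TRP and CACNA1H channels, MCU, CABIN1, PRKCA, CDC20, FBXO43, STX4, NAPA, ASTL, TIMP1, FSHR, INHA, SPARC, VIM, SERPINE2 and TNFAIP6) were chosen after their values were seen. Alternatives were other pseudocounts (0.1, 5), filters (none, 0.1, 5, and, chosen after seeing the data, 1 in each group), scalings, array weights, the replicate number as a block, and leaving out each library.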

Additional observations from a re-analysis of the deposited data

How the results depend on the processing

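Of the 9 members, 8 kept the direction of their difference under every alternative that was run, and 0 members had an adjusted p under 0.05 in any of them (lowest 0.336, for CAMK2D with array weights). PPP3CA turned to -0.0068 with median-ratio scaling and -0.0447 with quantile normalization, and ranged from -0.19 to 0.13 with each library left out. The PPP3CA family share ranged from -0.0708 to 7.30 percentage points in the same way. Members at an unadjusted p under 0.05 numbered 1 with array weights (CAMK2D), beside 11.1% of all tested genes. With each library left out they numbered 0 to 1. The 1 was CAMK2D without siMTFP1 1, beside 7.83% of all tested genes. It was CAMK2G without NC 2 and without siMTFP1 2, beside 7.26% and 3.46%. Genes past the adjusted threshold numbered 2 with a mean FPKM of at least 5, 2 with FPKM rescaled to equal sums, and 0 to 2 with each library left out. Calcium list genes at an unadjusted p under 0.05 numbered 2 to 9 with each library left out, beside 3.46% to 7.83% of all tested genes. They numbered 10 with array weights, beside 11.1%, and 6 with a mean FPKM of 1 in each group, beside 5.89%. With the replicate number as a block they numbered 4, beside 6.47%, against 7 without it, and genes past the threshold stayed at 0. Deviations of same-numbered libraries from their group means had correlations of 0.0342, -0.163 and 0.0668 across genes. Those of differently numbered libraries from the 2 groups ran from -0.2585 to 0.2313. Such values cannot settle whether same-numbered libraries shared a culture or an animal, which the labels do not state. The filter of 5 removed CAMK2D, STIM1 and ITPR1, which then had no value. The median difference of all tested genes stayed within 0.1 of 0 under each scaling. Depth is unknown, so no counting error is given for the low values of ITPR1 and STIM1.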
